A study of Mus musculus with 4 samples.

Results

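The netrins, their receptors of the Dcc and Unc5 families, and neogenin with its repulsive guidance molecule ligands were followed through the developing mouse superior colliculus. The members were taken by gene symbol: the ligands Ntn1 and Ntn4, the receptors Dcc, Neo1 (neogenin), Unc5a, Unc5b, Unc5c and Unc5d, and the neogenin ligands Rgma and Rgmb. All 10 were found among the 31053 genes of the deposited matrix. Nuclei of microdissected superior colliculus, the midbrain structure that receives axons from the retina, were sequenced from C57BL/6J mice at embryonic day 19 (E19) and postnatal days 4, 8 and 21 (P4, P8 and P21); the labels name no treatment and no engineered allele. Each stage had 1 library made from pooled animals, whose number and sexes the labels do not give. The study's title gives neuronal diversity and candidate genes of circuit assembly as its subject.

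Netrins are secreted proteins related to laminins that steer growing axons and migrating cells. Dcc and neogenin are related transmembrane receptors; Dcc on its own is best known for attraction towards netrin, while the Unc5 receptors, alone or together with Dcc, give repulsion. Neogenin also binds the repulsive guidance molecules, membrane-anchored ligands first described in the optic tectum, the name of the superior colliculus in birds, where they repel retinal axons. Rgma and Rgmb are in addition co-receptors for bone morphogenetic proteins.

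The 4 libraries held 9724 nuclei in all, from 2249 to 2585 per library, and median depth rose with age from 6828 to 11745 unique molecular identifiers (UMIs, counted molecules) per nucleus. Levels are given as CPM, the UMIs of a gene per 1000000 UMIs of a class and library, with exact 95% Poisson intervals, which cover counting error only. The authors' annotation named 9 classes and 35 subtypes. Of the 37 marker genes examined, most were highest in their own class; Slc1a3 was highest in vascular leptomeningeal cells, Gja1 in the nuclei labelled epithelial, and Pdgfra, Cspg4, Olig1 and Olig2 in dividing nuclei. The nuclei labelled epithelial did not carry theirs: Foxj1 stood at 4.41 CPM, Folr1 at 0 and Ttr at 22.0 CPM there. Of the leptomeningeal markers, Col1a2 stood at 384, Dcn at 141, Slc6a13 at 10.3 and Lum at 2.94 CPM in them. Vascular leptomeningeal cells held these 4 at 851, 269, 1050 and 20.8 CPM. The class is therefore called by its label only, as the nuclei labelled epithelial. A total of 9 cell barcodes occurred in more than 1 library. With 1 library per stage no difference between stages has a replicate check, and no test was made; the classes and subtypes were named by the authors from the same counts, so differences between them are descriptions.

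Microglia, immune cells of another lineage, gave the level at which the abundant members appear in a class that also held neuron markers. They comprised 13, 23, 21 and 33 nuclei from E19 to P21. Dcc stood between 159 and 250 CPM in them, from 9 to 25 UMIs per library. Unc5d stood between 142 and 297 CPM, from 8 to 33 UMIs. They held Unc5c between 53.1 and 207 CPM, from 3 to 23 UMIs, and Neo1 between 35.4 and 132 CPM. The 7 neuron markers together stood between 248 and 566 CPM. Levels of these receptors at or under those of microglia in the same library are not read as expression in what follows. The microglial levels are point values from few UMIs, so a level close to them is not told apart from them. Ntn1 in microglia did not exceed 1 UMI in any library.

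**Figure D1:**
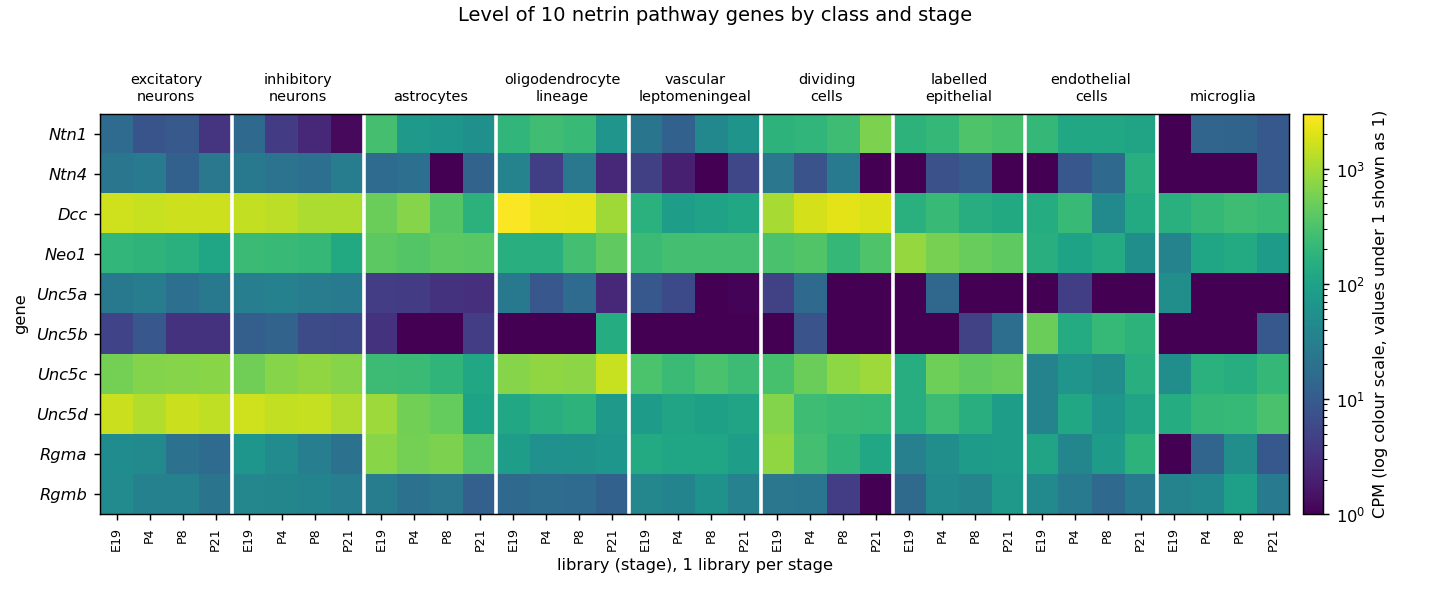
Level of each of the 10 genes (rows) in each class and library (columns, E19 to P21 within a class), in CPM on a log colour scale. Dcc and Unc5d are bright in neurons, Dcc also in the oligodendrocyte lineage and Unc5d in astrocytes at E19, Rgma in astrocytes, and Unc5b is seen in endothelial nuclei and in the oligodendrocyte lineage at P21, where it reached 143 CPM.

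Ntn1, the best known netrin, was found mostly outside neurons. Its gene lies on chromosome 11, 68209364 to 68400823 (GRCm38, the build of all positions here). Ntn1 stood in the nuclei labelled epithelial at 178, 207, 331 and 287 CPM, in order of stage. In dividing nuclei it stood at 174, 192, 252 and 616 CPM over 36, 25, 35 and 10 nuclei. In the oligodendrocyte lineage it stood at 193, 260, 222 and 65.04 CPM, and in astrocytes at 285, 74.3, 66.9 and 55.4 CPM. Neurons lay far below all of these in every library: 16.5, 7.99, 9.32 and 3.29 CPM in excitatory nuclei and 15.6, 4.07, 2.53 and 1.24 CPM in inhibitory nuclei. The share of excitatory nuclei with a Ntn1 UMI ran from 4.3% to 7.3%, against 0% to 4.8% of microglia, which were sequenced less deeply.

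Within neurons the remaining Ntn1 was uneven. EN8, 1 of the authors' excitatory subtypes, had the highest mean, with 36.0, 40.6, 52.3 and 15.7 CPM in order of stage, from 19 to 68 UMIs. EN11 had 46.5 CPM at E19 and 19.5 CPM at P4 and fell under 30 nuclei afterwards, the least required of a subtype here. The ranges of EN8 and EN11 overlapped, so their order is not settled by these libraries.

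Ntn4 (chromosome 10, 93640681 to 93747207), a netrin that also interacts with laminins of basement membranes, was low throughout. It stood between 12.2 and 28.3 CPM in excitatory and between 18.5 and 30.1 CPM in inhibitory neurons, lowest at P8 in both. EN7 had the highest mean, with 48.2 CPM at E19 and 59.4 CPM at P4, but its range overlapped that of the next subtype, IN10, and at E19 IN7 had 62.4 CPM and IN10 49.2 CPM. EN7 held 191 nuclei at P4 and 1 at each of P8 and P21. The 149 CPM seen in endothelial nuclei at P21 rested on 11 UMIs, 10 of them in 1 nucleus.

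Dcc (chromosome 18), the netrin receptor of attraction, spans 1097 kb and had the largest UMI total of the members, 138359, a total to which long introns contribute because intronic reads were counted. Per 100 kb of gene span, all neurons together at P21 had 225 CPM of Unc5d, 194 CPM of Unc5c, 128 CPM of Dcc, 93.1 CPM of Rgmb and 75.8 CPM of Neo1. On the same scale Unc5a stood at 46.4, Rgma at 40.7, Ntn4 at 25.4, Unc5b at 6.32 and Ntn1 at 1.25 CPM. At E19 Unc5d was again first on this scale with 283 CPM, and Rgmb second with 162 CPM. Dividing by span takes counts to rise in proportion to it, which was not tested, so this order is not a corrected order of expression.

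Dcc stayed level in excitatory neurons, at 1666, 1527, 1646 and 1624 CPM. In inhibitory neurons it stood at 1453, 1347, 1123 and 1132 CPM, so that E19 and P4 lay above P8 and P21 and every library lay under its excitatory counterpart. The P21 to E19 ratio was 0.974 (95% counting interval 0.956 to 0.993) in excitatory and 0.779 (0.758 to 0.801) in inhibitory neurons. With each nucleus thinned to 2300 UMIs, 76.9%, 76.6%, 76.0% and 84.3% of excitatory nuclei had a Dcc UMI, and 70.1%, 70.9%, 65.8% and 66.1% of inhibitory nuclei did. Microglia thinned in the same way gave 26.1% to 52.4%; unthinned, the shares were 89.5% to 97.5%, 83.2% to 89.1% and 43.5% to 71.4% in the 3 classes.

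**Figure D2:**
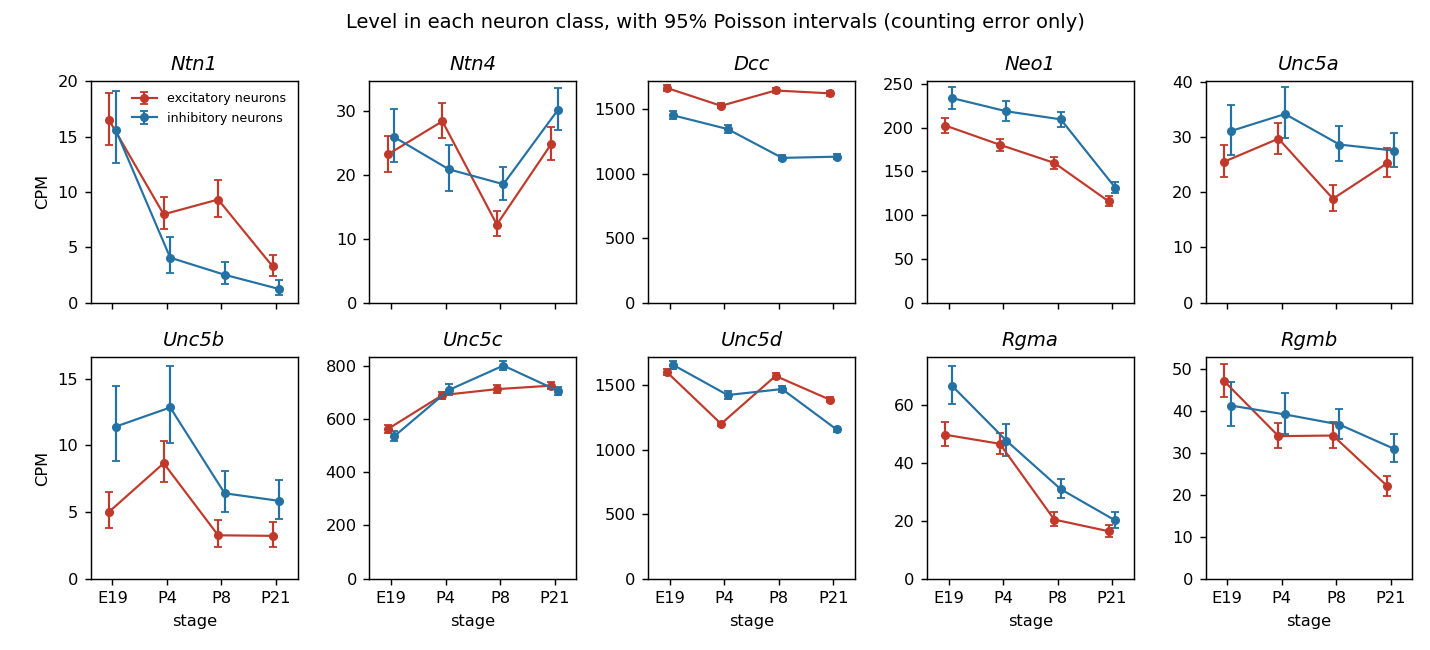
Level of each gene in CPM (linear axis from 0) against stage in excitatory (red) and inhibitory (blue) neurons; each point is 1 library and bars are 95% Poisson intervals. Rgma and Neo1 are lower at P21 than at E19 in both classes, whereas Unc5c is higher.

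The subtypes hid opposite courses for Dcc. Of the neuron subtypes it was highest in EN8 in every library, with 2644, 3100, 3316 and 2813 CPM (mean 2968 ± 298, SD over 4 libraries). This range did not overlap that of IN5, the next subtype by mean, at 2057 ± 187 CPM. EN6 came close to EN8 at P21, with 2808 CPM, and the ranges of EN6 and EN8 overlapped. In EN6 Dcc stood at 357, 1328, 2289 and 2808 CPM in order of stage, a P21 to E19 ratio of 7.87 (6.23 to 10.1), from 30 and 64 nuclei. EN5 had 118, 665, 657 and 914 CPM. By point values EN5 thus started under the microglial level, which rested on 9 UMIs at E19, and EN6 above it. Both ended far above it. In IN9 the order was the reverse, with 286, 154, 131 and 62.9 CPM, of which the last 3 lay under the microglia of the same library.

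Across the 9 excitatory and 10 inhibitory subtypes with 30 or more nuclei at both E19 and P21, Dcc was higher at P21 in 6 and 4 and lower in 3 and 6. The near-constant class level of Dcc in excitatory neurons therefore covers subtypes that differ in direction. With the subtypes of 10 or more nuclei at both stages weighted alike, its log2 ratio in excitatory neurons was 0.37 in place of -0.04.

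Unc5d (chromosome 8, 28646717 to 29219636), an Unc5 receptor that also binds Flrt proteins, had levels close to those of Dcc in neurons. It stood at 1603, 1200, 1572 and 1387 CPM in excitatory and 1657, 1424, 1470 and 1157 CPM in inhibitory neurons. IN8 had its highest mean, with 2713, 1899, 2014 and 1902 CPM, and EN12 its lowest, with 302, 279 and 446 CPM at P4, P8 and P21. The ranges of IN8, EN6, IN5 and EN4, the leading 4 subtypes, overlapped from each to the next. In EN6, where Dcc was so much higher at the later stages, Unc5d was also higher later, with 1229, 1488, 2840 and 2575 CPM.

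Unc5c (chromosome 3, 141465216 to 141834924), a receptor of netrin repulsion, was somewhat higher after E19 in both classes, with 562, 689, 712 and 725 CPM in excitatory and 536, 709, 800 and 706 CPM in inhibitory neurons. The P21 to E19 ratios were 1.29 (1.25 to 1.33) and 1.32 (1.26 to 1.37), under the call at a doubling. Thinned to 2300 UMIs, 49.4% of excitatory nuclei had an Unc5c UMI at E19 and 72.0% at P21, and 49.0% and 71.4% of inhibitory nuclei did; unthinned, the shares were 71.8% and 97.9%, and 66.9% and 95.9%. Microglia gave 7.7% to 30.4% thinned and 15.4% to 48.5% unthinned. It was higher at P21 in 7 of 9 excitatory and 7 of 10 inhibitory subtypes.

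IN9, lowest for Dcc, was highest for Unc5c, with 1279, 1609, 2269 and 1190 CPM (the P4 value from 22 nuclei). Its Dcc to Unc5c UMI ratio at E19 was 0.223 (0.157 to 0.311), against 2.71 (2.60 to 2.83) in all inhibitory neurons; at the later stages its Dcc lay under the microglial level and no ratio is given. EN8, highest for Dcc, had a ratio between 3.64 and 5.17 in the 4 libraries. It was not alone in this, as IN10 had 4.73 to 6.06 (25 nuclei at P4) and IN5 3.77 to 5.54. IN10 and EN13 had the least Unc5c, 252 ± 11.4 (n = 3 libraries) and 262 ± 60.3 CPM (n = 2). Over 23 neuron subtypes the log2 levels of Dcc and Unc5c had a Pearson r of -0.40, those of Dcc and Unc5d 0.48, and those of Unc5c and Unc5d -0.33. These subtypes share libraries and were defined on the same counts, so the coefficients are descriptions.

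**Figure D3:**
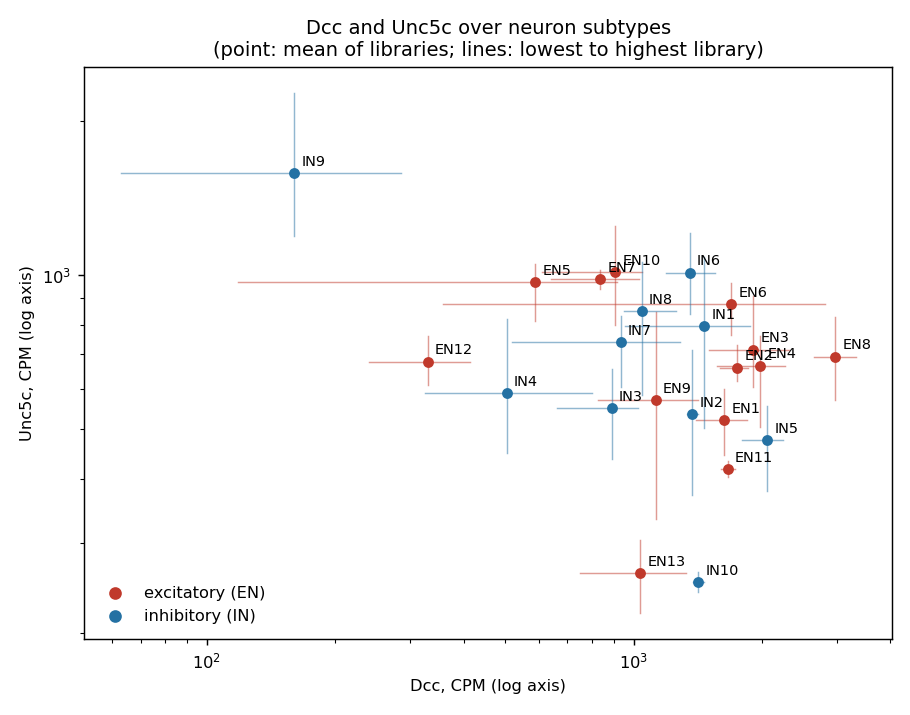
Mean level of Dcc (x) and Unc5c (y) over libraries in 23 neuron subtypes, in CPM on log axes; lines run from the lowest to the highest library. IN9 stands alone at low Dcc and high Unc5c, EN8 at the highest Dcc, and the long line of EN6 spans 357 to 2808 CPM of Dcc.

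Unc5 genes were also looked for in nuclei with and without Dcc. Nuclei thinned to 2300 UMIs were split by whether they held a Dcc UMI, and the shares with Unc5a, Unc5b, Unc5c or Unc5d were compared in each class and library, 32 comparisons in all. In 29 the 95% Clopper-Pearson intervals overlapped, which does not show that the shares were alike. Unc5d was found in more of the Dcc-positive excitatory nuclei at P4, 73.5% (70.5 to 76.3) against 58.2% (52.2 to 64.0), and at P21, 82.1% (78.7 to 85.1) against 68.2% (58.5 to 76.9). Unc5c was found in fewer of them at P4, 60.2% (56.9 to 63.3) against 69.5% (63.8 to 74.8). Without thinning the intervals of these 3 comparisons overlapped, and the 2 that did not were those of Unc5a in inhibitory neurons at E19 and P21. Each split mixes subtypes within 1 library, and nuclei are not replicates, so the shares are descriptions.

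Unc5a and Unc5b were low in neurons. Unc5a (chromosome 13, 54949411 to 55006018), a dependence receptor that triggers cell death without its ligand, stood at 25.5, 29.7, 18.8 and 25.3 CPM in excitatory and 31.0, 34.1, 28.6 and 27.5 CPM in inhibitory neurons. It was highest in IN1, at 44.6 ± 4.42 CPM (SD, 4 libraries). Astrocytes held 4 or 5 UMIs of it per library, between 3.08 and 4.32 CPM. Microglia held 3 UMIs at E19, or 53.1 CPM, above both neuron classes of that library, and 0 afterwards.

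Unc5b (chromosome 10, 60762593 to 60831581), known from blood vessels, did not exceed 12.8 CPM in either neuron class. IN4 had the highest mean, with 57.5, 44.3, 20.2 and 18.5 CPM, from 16 to 21 UMIs per library. Its lower libraries overlapped other subtypes, since IN7 had 29.4 CPM and EN7 20.2 CPM at P4. In endothelial nuclei Unc5b stood at 496, 140, 211 and 176 CPM, over only 13, 22, 15 and 12 nuclei. At E19, 33 of the 55 UMIs came from 1 nucleus, and at P21 all 13 did.

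Neogenin and its ligands stood lower at P21 than at E19 at the level of both neuron classes. Neo1 (chromosome 9, 58874687 to 59036441) stood at 202, 180, 160 and 116 CPM in excitatory and 234, 219, 209 and 131 CPM in inhibitory neurons, each library under the one before. The P21 to E19 ratio was 0.572 (0.537 to 0.609) and 0.562 (0.522 to 0.605). The same direction was seen in all 9 excitatory and all 10 inhibitory subtypes, with an interval under 1 in 8 and in 10 of them.

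Rgma (chromosome 7, 73375509 to 73419899) fell in both classes. Astrocytes held far more of it, between 372 and 724 CPM over the 4 libraries, and were also lower at P21 than at E19. Their part in the neuron values was not tested. Excitatory neurons had 49.8, 46.7, 20.5 and 16.4 CPM, and a P21 to E19 ratio of 0.330 (0.283 to 0.384). Inhibitory neurons had 66.8, 47.7, 31.0 and 20.2 CPM, with a ratio of 0.302 (0.256 to 0.356). Its direction was the same in all 9 and all 10 subtypes, for example from 162 to 25.4 CPM in IN6 and from 116 to 12.5 CPM in IN3. The gene A730056A06Rik overlaps Rgma on the opposite strand and had 1871 UMIs, beside 6460 of Rgma; the matrix lists the 2 genes separately, but whether counting used the strand is not stated, and without it reads from the shared stretch cannot be told apart.

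Rgmb (chromosome 17, 15803188 to 15831039) stood at 47.1, 34.0, 34.1 and 22.0 CPM in excitatory neurons and at 41.3, 39.1, 36.7 and 31.0 CPM in inhibitory neurons. The P21 to E19 ratios were 0.468 (0.407 to 0.538) and 0.750 (0.636 to 0.887). Its subtypes did not all follow. Rgmb was lower at P21 in 8 of 9 excitatory subtypes, with an interval under 1 in 8, and higher in 1. In inhibitory subtypes it was lower in 7 of 10, with an interval under 1 in 3, and higher in 3. IN3 and IN4, inhibitory subtypes, had 59.6, 78.9, 60.0 and 65.2 CPM and 51.8, 59.9, 61.8 and 60.8 CPM. These were the leading subtypes for Rgmb, and their ranges overlapped. Microglia held Rgmb at 35.4, 41.3, 92.2 and 27.0 CPM from 2, 3, 7 and 3 UMIs, so the class levels in neurons were not above them from P4 on except in inhibitory neurons at P21, and IN3 and IN4 lay under them at P8.

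A call of higher or lower was made where the log2 ratio, with 5 CPM added to both values, was at least 1 in size and the higher level at least 20 CPM. From E19 to P21, 8 members could be counted in each neuron class, Ntn1 and Unc5b being too low. In excitatory neurons 1 of 8 was lower, Rgma at -1.35 (-1.53 to -1.17), beside 10.7% of all genes, and 0 of 8 were higher, beside 5.35%. In inhibitory neurons 1 of 8 was lower, again Rgma at -1.51 (-1.71 to -1.31), beside 11.3% of all genes, and 0 of 8 were higher, beside 5.83%. These shares are close to the background. The median log2 ratio of the counted members was -0.12 in excitatory and -0.36 in inhibitory neurons, and that of all counted genes -0.06 and -0.04. Ntn1, not counted, had ratios of 0.199 (0.142 to 0.275) and 0.0794 (0.0418 to 0.14).

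Between neighbouring stages 8 members could be counted each time, and 1 call was made. Rgma in excitatory neurons was lower at P8 than at P4, the 1 of 8 members called, beside 0.832% of all genes, and 0 were higher, beside 0.361%. From E19 to P4, 0 of 8 were called in excitatory neurons (0.472% of all genes were higher and 0.701% lower) and 0 of 8 in inhibitory neurons (0.436% and 0.582%). From P4 to P8, 0 of 8 were called in inhibitory neurons (0.136% of all genes were higher and 0.382% lower). From P8 to P21, 0 of 8 were called in excitatory neurons (2.15% and 3.2%) and 0 of 8 in inhibitory neurons (2.62% and 3.28%). In inhibitory neurons the log2 steps of Rgma were -0.44, -0.55 and -0.51. Neo1 moved most after P8, by -0.45 (-0.54 to -0.36) in excitatory and -0.65 (-0.74 to -0.56) in inhibitory neurons.

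**Figure D4:**
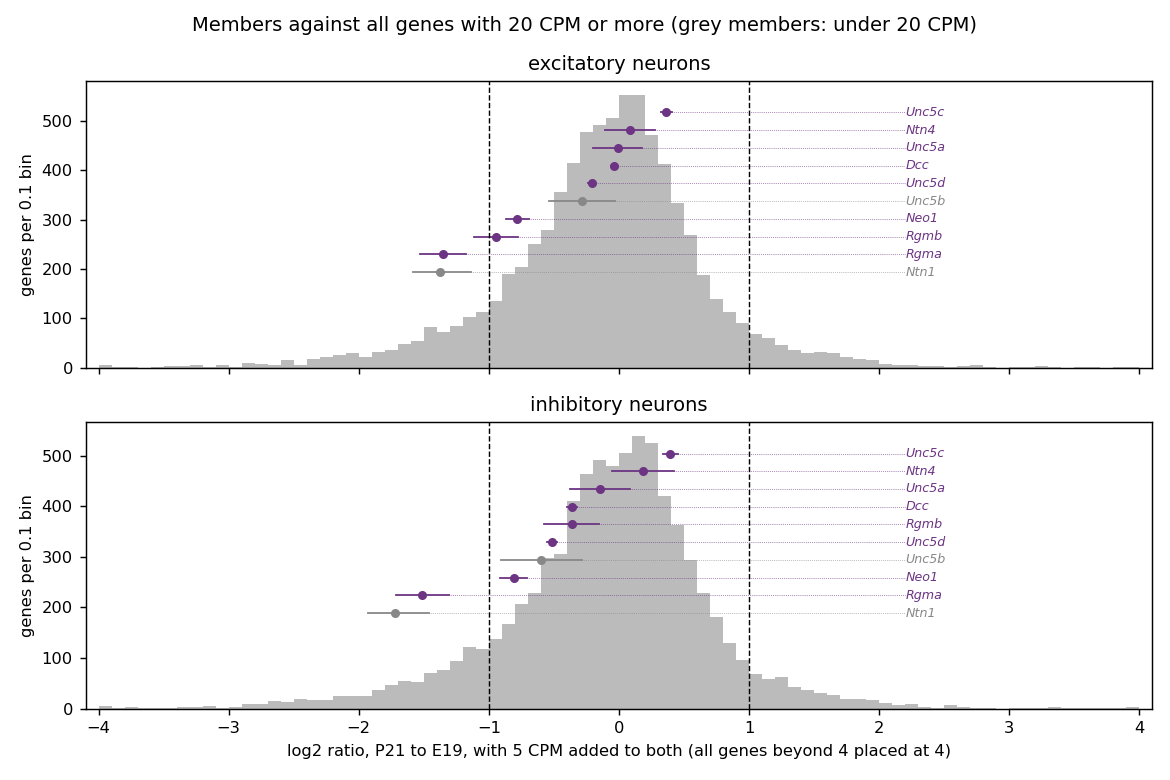
Log2 ratio of P21 to E19 for each member (points, with 95% counting intervals) over the histogram of all genes with 20 CPM or more (grey bars, genes per bin), for each neuron class; dashed lines mark a log2 ratio of -1 and 1. Rgma lies beyond -1 in both classes, Ntn1 too but under 20 CPM, and the other members lie between the lines.

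No counted member was called between the neuron classes. Of 8 counted members, 0 were at least 2-fold higher in excitatory neurons in all 4 libraries (0.512% of all genes were) and 0 in inhibitory neurons (0.548% were). Dcc was higher in excitatory neurons in 4 of 4 libraries, by 1.13 to 1.47 times. Neo1 was higher in inhibitory neurons in 4 of 4 libraries, by 1.14 to 1.31 times.

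Other genes of the pathway were taken from a list of 66 ligands, co-receptors, proteases, ubiquitin ligases and effectors, of which 65 were found. In excitatory neurons 5 of 51 counted genes were lower at P21 and 0 were higher, beside the same 10.7% and 5.35%. Draxin, a secreted antagonist that binds both netrin and Dcc, fell from 39.9 to 0.548 CPM, and Trim67, a ubiquitin ligase that interacts with Dcc, fell from 83.2 to 17.0 CPM. Maged1, an adaptor of Unc5a signalling, fell from 146 to 59.4 CPM, and the kinases Dapk1 and Mapk3 fell as well. Among the counted genes the largest ratios upward were those of Myo10, a myosin that carries Dcc into filopodia, from 29.0 to 57.0 CPM, of Gpc3, and of Mbtps1, all under the call.

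In inhibitory neurons 6 of 52 counted pathway genes were lower and 1 was higher, beside the same 11.3% and 5.83% of all genes. In both classes the share of the list that was lower was thus near the background. The 6 were Draxin (38.6 to 0.973 CPM), Trim67 (86.7 to 13.5 CPM), Maged1 (179 to 76.2 CPM), Dscaml1, Dapk1 and Mapk3. The 1 that rose was Bmp6, a bone morphogenetic protein, from 3.02 to 24.4 CPM. Trim9, the ubiquitin ligase most closely related to Trim67, went from 157 to 235 CPM, under the call. The median log2 ratio of the counted list was -0.21 in excitatory and -0.30 in inhibitory neurons.

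Oligodendrocytes, the myelin-forming glia, differed from their precursors in several members. The lineage comprised precursors (46, 42, 109 and 64 nuclei from E19 to P21), committed oligodendrocytes (33 at P8 and 55 at P21) and, at P21, 187 myelinating oligodendrocytes. Dcc in precursors stood at 2912, 2710, 2759 and 2090 CPM, above either neuron class in every library. It was lower in committed oligodendrocytes, at 1066 CPM at P8 and 142 CPM (111 to 180) at P21, the latter under the 225 CPM of microglia. In myelinating oligodendrocytes of the same library it stood at 1007 CPM (958 to 1058).

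Unc5d lay under the microglial level in the lineage in every library, and the Dcc to Unc5d ratio is given beside this. Myelinating nuclei held 1578 Dcc UMIs and 115 Unc5d UMIs, a ratio of 13.7 (11.3 to 16.7). The ratio was 1.17 in excitatory neurons, 0.979 in inhibitory neurons and 0.758 (0.432 to 1.31) in microglia of that library. The 7 neuron markers together stood at 186 CPM in myelinating, 183 in committed and 624 in precursor nuclei at P21, beside 504 CPM in microglia.

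**Figure D5:**
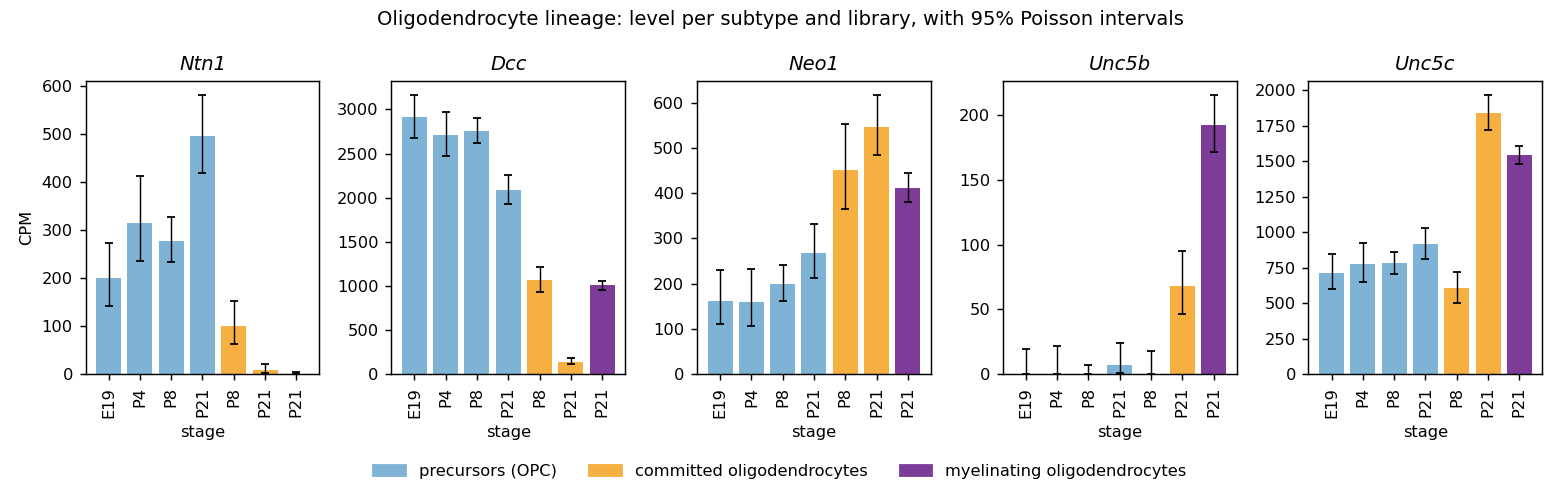
Level in CPM (bars from 0, with 95% Poisson intervals) of Ntn1, Dcc, Neo1, Unc5b and Unc5c in precursors, committed and myelinating oligodendrocytes by library. Ntn1 is high in precursors and at 8.23 CPM or less in the later cells of P21, Unc5b is seen at P21 in committed and myelinating nuclei with 2 UMIs in precursors, and Dcc is lowest in the committed nuclei of P21.

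Unc5b was found in the lineage only at P21. Its count was 0 UMIs at E19, P4 and P8 over 47, 54 and 143 nuclei, and 337 UMIs at P21, or 143 CPM (128 to 159). This P21 value was 55.3 times the level that 3 counts would give over the 3 earlier libraries together. Against 3 counts at P8 alone it was 35.05 times. Both divide a point estimate by a level of 3 counts, so neither is a lower bound. These folds set unlike cells side by side, as myelinating nuclei numbered 187 at P21 and 1 at P8. The P21 UMIs lay in myelinating oligodendrocytes (302, in 72.2% of nuclei, or 37.4% when thinned, 193 CPM) and committed oligodendrocytes (33, 67.9 CPM). Precursors held 2. At P8 committed oligodendrocytes held 0 UMIs in 33 nuclei, where 3 counts would be 14.3 CPM. The endothelial markers Cldn5, Flt1 and Pecam1 together stood at 6.38 CPM in myelinating nuclei, against 3579 CPM in endothelial nuclei of the same library.

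Unc5c and Neo1 were higher in the later cells of the lineage at P21. Unc5c stood between 713 and 915 CPM in precursors over the 4 libraries, and at 1842 CPM in committed and 1543 CPM in myelinating nuclei at P21; at P8 committed nuclei had 604 CPM, under the 783 CPM of precursors. The Dcc to Unc5c ratio was between 2.28 and 4.08 in precursors and was 0.652 in myelinating nuclei at P21. Neo1 stood at 163, 160.5, 199 and 267 CPM in precursors, and at 548 CPM in committed and 411 CPM in myelinating nuclei at P21. Gm47271 overlaps Neo1 on the opposite strand and had 618 UMIs, beside 19717 of Neo1, with the same limit as for Rgma.

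Within the lineage Ntn1 was highest in precursors. They held 199, 315, 277 and 494 CPM, the P21 library highest. Committed nuclei had 99.9 CPM at P8, from 21 UMIs, and 8.23 CPM at P21, from 4 UMIs, and myelinating nuclei 0.638 CPM, from 1 UMI. Precursors thus held 60.0 times (23.0 to 223) the committed level at P21.

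Over the lineage as a whole from P4 to P21, 2 of 7 counted members rose, Neo1 and Unc5b (12.4% of all genes were higher), and 2 fell, Ntn1 and Dcc (26.9% were lower). The make-up of the class moved with these values: 42 of 54 nuclei were precursors at P4 and 64 of 306 at P21. Weighting subtypes alike kept only those with 10 or more nuclei at both stages, precursors and committed oligodendrocytes (12 nuclei at P4). The 187 myelinating nuclei of P21 were left out. On that basis the log2 ratio was 0.26 in place of -1.92 for Ntn1 and -0.88 in place of -1.29 for Dcc. Of the members, 0 were then lower.

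The windows upstream of Unc5b and Neo1, the pair that rose in the lineage, are shown beside that of Unc5a, which was found mainly in neurons. Each is the 250 bases before the RefSeq transcript start (GRCm38.p6), 5′ to 3′ on the gene's strand. Each lies outside the span of its own gene in GENCODE M21, and overlap with other genes was not checked. Capitals mark GC boxes (GGGCGG on either strand, overlapping matches counted).

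Unc5b, chr10:60831582-60831831, minus strand: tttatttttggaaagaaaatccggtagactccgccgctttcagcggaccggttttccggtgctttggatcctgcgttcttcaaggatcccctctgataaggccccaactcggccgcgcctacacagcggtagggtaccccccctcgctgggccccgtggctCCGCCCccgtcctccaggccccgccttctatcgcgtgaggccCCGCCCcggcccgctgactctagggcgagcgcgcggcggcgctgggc

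Neo1, chr9:59036442-59036691, minus strand: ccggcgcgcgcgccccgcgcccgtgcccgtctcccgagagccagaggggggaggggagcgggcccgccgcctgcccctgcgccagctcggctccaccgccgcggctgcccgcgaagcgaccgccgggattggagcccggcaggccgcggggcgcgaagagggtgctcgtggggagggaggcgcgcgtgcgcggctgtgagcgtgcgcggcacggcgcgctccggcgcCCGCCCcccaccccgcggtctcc

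Unc5a, chr13:54949161-54949410, plus strand: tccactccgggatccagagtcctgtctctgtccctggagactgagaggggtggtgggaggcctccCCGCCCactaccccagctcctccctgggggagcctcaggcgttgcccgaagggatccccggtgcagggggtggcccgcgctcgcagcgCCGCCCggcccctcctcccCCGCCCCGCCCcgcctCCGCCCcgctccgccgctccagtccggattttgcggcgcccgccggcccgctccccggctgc

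The Unc5b window held 2 GC boxes, the Neo1 window 1 and the Unc5a window 5, and 32.9% of 27025 windows of the same length held at least 1. A TATA box (TATAAA, either strand), held by 13.0% of all windows, a SOX core (ACAAAG, either strand), held by 16.5%, and an E-box (CANNTG), held by 66.0%, were found in 0 of these 3. GC content was 66.8%, 83.2% and 76.8%, against a median of 52% over all windows. A match is a description of letters only. Of the 10 members, 6 had an entry in the RefSeq table.

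Astrocytes, the glia that tile neural tissue, had the highest mean Rgma of the classes, though dividing nuclei had more at E19. It stood at 724, 561, 610 and 372 CPM in order of stage, and each library lay above all neuron and oligodendrocyte values of that gene. The P21 to E19 ratio was 0.514 (0.459 to 0.574). Neo1, its receptor, stayed level in the same cells at 393, 349, 402 and 392.4 CPM.

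From E19 to P21, 4 of 7 counted members fell in astrocytes, beside 18.2% of all genes, and 0 rose, beside 8.6%. Unc5d fell from 930 to 103 CPM, Ntn1 from 285 to 55.4 CPM, Dcc from 503 to 171 CPM and Rgmb from 29.2 to 11.7 CPM. Unc5d and Dcc ended under the microglial level of that library, and Rgmb lay under it at both stages (35.4 and 27.0 CPM). Single neuron markers went different ways. In protoplasmic astrocytes Rbfox3 went from 111 to 17.2 and Slc17a6 from 63.9 to 27.9 CPM. Snap25 went from 78.8 to 151 CPM there, and Gad2 stood at 27.2 CPM at both stages. In fibrous astrocytes Rbfox3 went from 121 to 13.2 and Slc17a6 from 47.2 to 13.2 CPM. Snap25 went from 68.2 to 216 and Gad2 from 31.5 to 48.5 CPM there. The 7 neuron markers together stood at 349, 280, 264 and 268 CPM in astrocytes. Slc17a7, at only 2.58 CPM in excitatory neurons, was at 0 in each library. The 4 oligodendrocyte markers together went from 15.1 to 681 CPM. The part of these markers in the result was not tested.

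The astrocyte subtypes differed in the receptor Unc5c. Fibrous astrocytes had 913, 767, 522 and 247 CPM and protoplasmic astrocytes 65.2, 84.2, 116 and 102 CPM, beside 53.1, 165, 145 and 207 CPM in microglia. Protoplasmic astrocytes thus lay under the microglial point values from P4 on, which rested on 12, 11 and 23 UMIs, and no ratio is given. Ntn1 was higher in fibrous nuclei at E19 and in protoplasmic ones at P8 and P21. At E19 fibrous astrocytes had 446 CPM and protoplasmic ones 243 CPM, a ratio of 1.83 (1.40 to 2.39). At P4 the ratio was 0.869 (0.458 to 1.55), an interval that includes 1, and at P8 and P21 fibrous nuclei held 0 and 1 UMIs and protoplasmic ones 83 and 89.

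Vascular leptomeningeal cells, fibroblast-like cells of the brain's coverings and vessels, had Neo1 at 236, 274, 270 and 276 CPM and Unc5c at 314, 236, 299 and 242 CPM. Both lay above the microglial values of the same library. Ntn1 stood at 22.7, 12.2, 41.6 and 63.2 CPM, from 5, 6, 20 and 58 UMIs, and was the 1 of 7 counted members called higher from P4 to P21 (4.21% of all genes were), while 0 were lower (11.9% were). Thinned to 2300 UMIs the log2 ratio of Ntn1 was 0.84 in place of 1.99, under the call. The 3 endothelial markers together went from 87.3 to 195 CPM in these nuclei over the same stages and the 4 oligodendrocyte markers from 10.2 to 580 CPM, and their part in the result was not tested. Unc5b had 0 UMIs in these cells in each library, and 3 counts were taken as the floor of detection.

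The nuclei labelled epithelial had the most Neo1 of the classes at E19, 841 CPM, followed by 577, 470 and 411 CPM. These came from 13, 17, 32 and 40 nuclei. In dividing nuclei Rgma stood at 783, 277, 187 and 117 CPM and Dcc at 1047, 1785, 2171 and 1980 CPM. The dividing nuclei held the precursor marker Pdgfra at 523 CPM and the astrocyte marker Aldh1l1 at 147 CPM over all libraries.

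For each member, the genes whose levels ran most closely with it over the 35 subtypes with 50 or more nuclei were listed among 11764 genes by Pearson r of log2 levels. Unc5a and Unc5d had the closest partners, Lemd1 (0.92) and Rasgrf1 (0.92), the second an exchange factor for Ras. Rgma ran with Fgfr3 (0.86), a growth factor receptor of astrocytes, and Ntn1 with Il17rd (0.87) and Hes1 (0.86), a Notch target. Unc5b ran with Plekhh1 (0.83) and Mcam (0.82), both highest in myelinating oligodendrocytes among the subtypes. Neo1 ran with its overlapping antisense gene Gm47271 (0.85) and with the collagen receptor Ddr1 (0.83). Dcc was nearest to Ak5 (0.78), Ncam2 (0.78) and Csmd3 (0.78), Unc5c to Faah (0.78) and Pak7 (0.77), Ntn4 to Tmem132a (0.80), and Rgmb to Nt5c2 (0.64), the weakest of these. The subtypes share libraries and depth, and the values are descriptions.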

How the data were processed

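Per the labels' protocols, nuclei were purified on a sucrose cushion, captured with 10x 3′ v3 chemistry and aligned with Cell Ranger 3.0.2 to a pre-mRNA reference of mm10, so intronic reads were counted. The deposited matrix holds raw UMI counts; the deposited table of nuclei gives stage, class, subtype and the percent of mitochondrial UMIs (median 0.232 to 0.795 per library). Its UMI totals were identical to sums over the matrix in all 9724 nuclei. Nucleus filtering and doublet removal by the authors are not given in the sources used here, and 4 further value columns were not used. A label writes a second embryonic day beside E19; the stage label was followed.

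UMIs were summed per library and class or subtype and scaled to CPM. Log2 ratios had 5 CPM added; genes with 20 CPM in the higher group were counted, and a call was an absolute value of 1 or more. Intervals (95%) were exact Poisson, Clopper-Pearson or conditional binomial (SciPy 1.17.1) and were checked on simulated counts. With 1 library per stage there was no test. A subtype needed 30 nuclei in a library. Named genes were the members, the 3 nearest genes of each over subtypes, and the 3 largest rises and falls of the pathway list per neuron class; Dapk1, Mapk3 and Dscaml1 were named after their values were seen, as were the subtypes described singly. Gene positions are from GENCODE M21 (31011 of 31053 identifiers found). Members and lists were chosen with earlier results of these data known. Alternatives were other added values and thresholds, no low-level filter, median-of-ratios scaling, equal weights per nucleus or subtype, thinning to 2300 UMIs, neurons classed by their own UMIs, omission of EN7 or of 1 library, and a minimum of 10 nuclei.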

Additional observations from a re-analysis of the deposited data

Results flagged for a closer look

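Ntn1 moved in opposite directions in a pair of classes over the same libraries, which is why it is listed. From P4 to P21 its log2 ratio was -1.92 in the oligodendrocyte lineage (260 to 65.04 CPM) and 1.99 in vascular leptomeningeal cells (12.2 to 63.2 CPM). Each class had 1 library per stage, so the difference was not tested. Within precursors alone Ntn1 was higher at P21 than at P4, at 494 against 315 CPM.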

How the results depend on the processing

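In excitatory neurons, members called lower from E19 to P21 numbered 1, but 0 with 20 CPM added, 2 with 1 CPM added, with no filter on low levels, with thinned nuclei and with subtypes weighted alike, and 3 at a log2 threshold of 0.58. In inhibitory neurons they numbered 1, but 2 with no filter and at 0.58. Pathway genes lower in excitatory neurons (5) became 3 with 20 CPM added and 11 at 0.58; those higher (0) became 1 with nuclei weighted alike, with thinning and with neurons classed by their own UMIs, and 2 at 0.58. In inhibitory neurons those lower (6) became 3 with 20 CPM added and 18 at 0.58; those higher (1) became 0 with 20 CPM added and with subtypes weighted alike, and 2 at 0.58. With precursors and committed oligodendrocytes weighted alike and myelinating nuclei left out, members lower in the oligodendrocyte lineage numbered 0 in place of 2. The log2 ratio of Ntn1 was then 0.26. With thinning, members higher in vascular leptomeningeal cells numbered 0 in place of 1. The leading subtype remained for 5 of 10 members with thinning and for 5 to 9 when 1 library was left out (5 without E19). Dcc led in EN8, Unc5b in IN4 and Unc5c in IN9 under each alternative run. With each library left out in turn, 0 members were called between excitatory and inhibitory neurons; a ratio of 1 stage to another rests on 1 library each and allows no such check. The cause of these changes was not tested, beyond the construction of the lower threshold and of the larger added value. No other of these counts moved by over 1.5 times. No paired analysis was possible because each stage had 1 library. Counting error limits Unc5b, Ntn1 and Ntn4 in neuron subtypes and every member in endothelial nuclei and microglia.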
